A study of Arabidopsis thaliana with 21 samples.

Results

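Chromatin immunoprecipitation followed by sequencing (ChIP-seq) had been used to map FIE, the transcription factors AZF1 and BPC1, and the histone mark H3K27me3 in Arabidopsis thaliana plants aged 30 h. Described here are the FIE regions near the centromeres at which neither factor was found. They are the rows of the FIE list that overlap no AZF1 and no BPC1 region and whose summit lies in a fixed window around each centromere. These windows were chromosome 1 from 13 to 17 Mb, chromosome 2 from 2 to 6 Mb, chromosome 3 from 11 to 16 Mb, chromosome 4 from 2 to 6 Mb and chromosome 5 from 10 to 14 Mb. The stretch of chromosome 2 from 3 to 4 Mb was left out, which leaves 20 Mb. The rule selected 806 of the 5006 FIE regions on the 5 nuclear chromosomes (16.1%), and 48.8% of the 1653 FIE regions in the windows. The regions were thus chosen by the FIE, AZF1 and BPC1 calls and by position, and these are described below without a test.

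FIE was precipitated with an anti-HA antibody from C24 plants that carried pFIE:FIE-HA, an HA-tagged FIE under its own promoter, in the fie-11 mutant, and the C24 input came from the same line. AZF1 and BPC1 were precipitated with an anti-Myc antibody from Col plants carrying gAZF1-Myc or gBPC1-Myc, and the Col input came from the gAZF1-Myc line. H3K27me3 and total histone H3 were precipitated from Col plants without a transgene. All 7 groups had 3 samples, grown in 16 h of light and 8 h of dark without treatment. The deposited data were 1 list of regions per protein or mark, so no value has a replicate error and the depth behind a region is unknown. FIE was mapped in C24 and the factors and the mark in Col, so absence of a factor or of H3K27me3 at a FIE region cannot be told apart from a difference between the accessions.

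FIE is a WD40 protein of Polycomb repressive complex 2 (PRC2), the enzyme complex that places H3K27me3 and keeps developmental genes silent. BPC1 belongs to the BASIC PENTACYSTEINE proteins, which bind GA repeats, and AZF1 is a C2H2 zinc finger protein. Pericentromeric DNA of Arabidopsis is rich in transposons and satellite repeats and poor in genes, and it is mostly silenced through DNA methylation and methylation of another histone lysine rather than through PRC2. The label of the windows was checked against gene content. Each 1 Mb bin held between 15 and 141 protein-coding genes, so the outer bins still contain gene-bearing chromatin.

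The factor-free regions were unevenly spread, both between chromosomes and within most windows. Their density was 77.75 per Mb on chromosome 1 (n = 311), 52.25 on chromosome 5 (n = 209), 30.8 on chromosome 3 (n = 154), 24.75 on chromosome 4 (n = 99) and 11 on chromosome 2 (n = 33). On chromosome 2 the 3 bins of 1 Mb were alike, with 11, 13 and 9 regions. Over all 20 bins the count ran from 9 to 219 with a median of 20. The bin at 15 to 16 Mb of chromosome 1 held 219 and the bin at 11 to 12 Mb of chromosome 5 held 120, together 42.1% of all 806. Both bins were among the poorest in genes, with 19 and 16 protein-coding genes. In these bins AZF1-bound or BPC1-bound FIE regions were also frequent, and the factor-free ones made up 57.9% and 48.2% of the FIE regions. Across the 20 bins this share ran from 23.7%, at 5 to 6 Mb of chromosome 2, to 82.4%, at 11 to 12 Mb of chromosome 3.

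**Figure D1:**
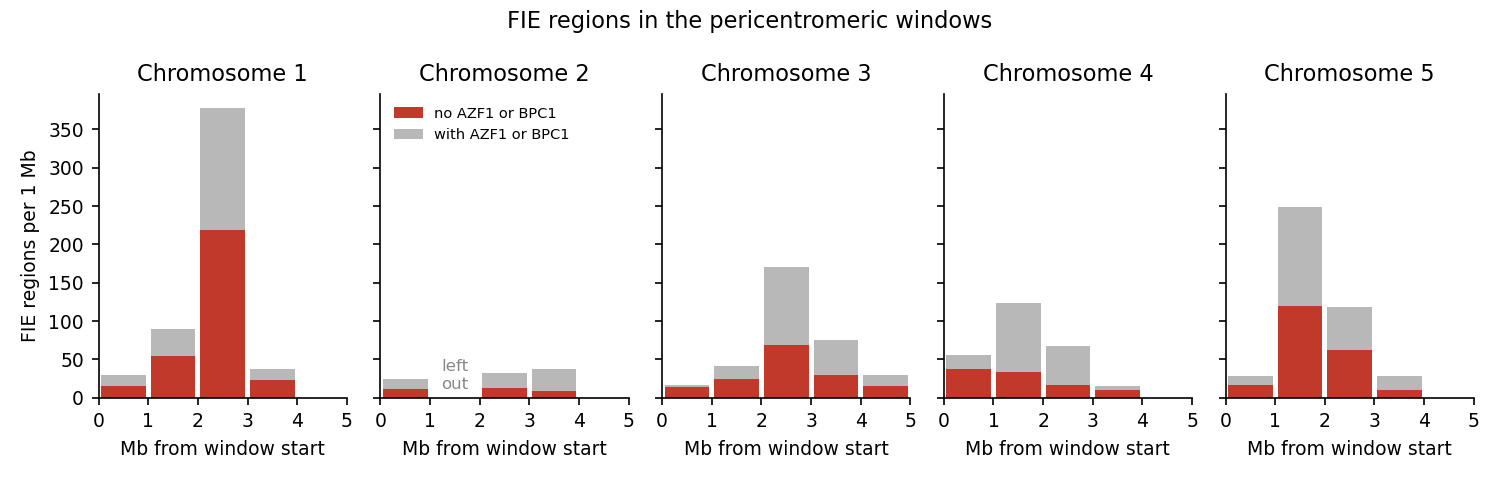
Number of FIE regions (vertical axis) in each 1 Mb bin of the 5 pericentromeric windows, by distance from the window start (horizontal axis, Mb). Red bars are FIE regions without AZF1 or BPC1 and grey bars those with a factor; the highest bin, on chromosome 1, holds 219 factor-free regions of 378.

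By the authors' values the factor-free regions were of moderate height, and their widths were close to those of FIE regions with AZF1 alone. Fold enrichment over the control had a median of 4.35, with quartiles of 3.75 and 5.05, and ran from 2.62 to 11.6. The median was 4.74 for the 2381 factor-free FIE regions outside the windows. Within the windows it was 4.30 for the 453 FIE regions with AZF1 alone and 4.60 for the 344 with AZF1 and BPC1. Widths ran from 110 to 1978 bp with a median of 215.5 bp. The median was 227 bp for the pericentromeric regions with AZF1 alone and 280 bp for factor-free regions outside the windows, or 212 bp for the 823 of the latter without H3K27me3. The −log10 q ran from 10.02, next to the lowest value kept in the list, to 54.98. Median folds by chromosome lay between 3.99 on chromosome 4 and 4.80 on chromosome 3.

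**Figure D2:**
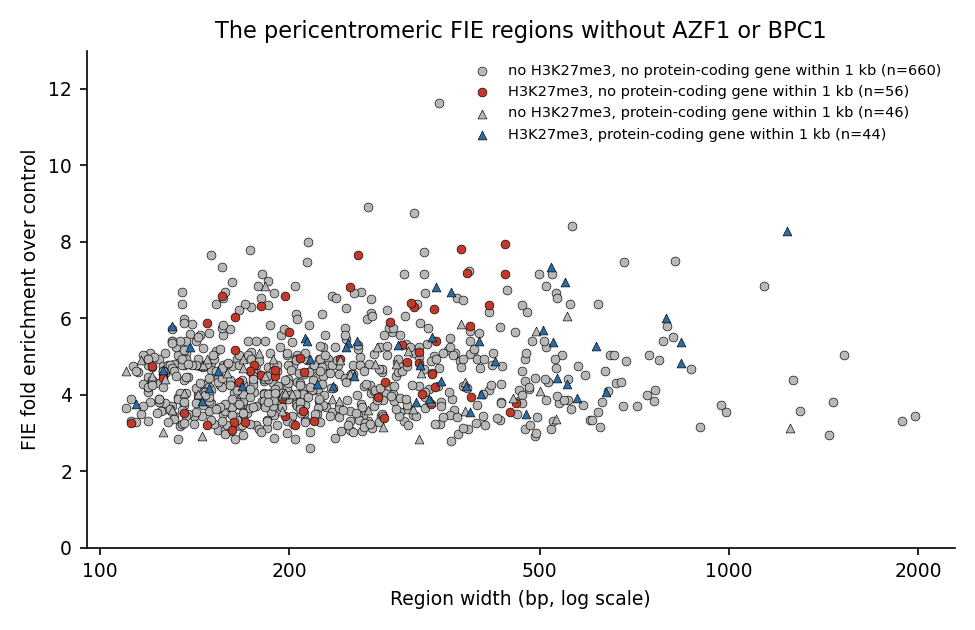
FIE fold enrichment over the control (vertical axis) against region width in bp (horizontal axis, log scale) for each of the 806 regions. Colour gives overlap with H3K27me3 and triangles mark regions with a protein-coding gene within 1 kb; all points but 1 lie below a fold of 9, and the highest, at 11.6, has neither the mark nor such a gene.

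The highest regions lay mostly away from genes, as did the 806 as a whole, of which 61.5% had no gene within 1 kb. The 15 highest are too few to read a difference from the whole. The strongest of all had a fold of 11.6 (chromosome 3, 13814639 to 13814984), and the next, with 8.92, lay beside it (13816156 to 13816422), within 1 kb of the pseudogene AT3G33080. Another on the same chromosome reached 8.76 (14185802 to 14186117) and had no annotated gene within 1 kb. On chromosome 5 the highest fold was 8.42 (11331314 to 11331875), also without a gene within 1 kb. The fifth was inside the protein-coding gene AT1G43140, with a fold of 8.29 (chromosome 1, 16231906 to 16233143). It was the only one of the 15 highest with a protein-coding gene within 1 kb, against 11.2% of all 806. The remaining 10 of these 15 had folds of 7.48 to 7.998. They lay on chromosomes 1, 2, 3 and 5. Of the 15, 4 overlapped H3K27me3, against 12.4% of all 806, and 2 of these 4 lay in the same H3K27me3 region. These 4 were those at AT1G43140 and at the pseudogene AT5G32197 and 2 in a gene-free stretch of chromosome 1 described below.

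Few of the 806 summits lay in annotated genes. A summit fell inside a protein-coding gene for 60 regions (7.44%, 95% Wilson interval 5.83 to 9.47), against 41.6% of all nuclear FIE regions. Among factor-free FIE regions outside the windows the share was 57.8%. Protein-coding genes covered 13.03% of the bases of the windows, and since the windows are part of the rule, this contrast is a description. Within the windows the factor-free regions lay in protein-coding genes more often than the 797 FIE regions with AZF1, of which 2.26% did (odds ratio 3.48 with limits of 2.04 and 5.95, adjusted p = 1.43e-06 in a two-sided Fisher's exact test). Of the 50 FIE regions with BPC1 alone the share was higher, at 26%, which was not tested. Against the regions with AZF1, the factor-free share was higher on 5 of 5 chromosomes. With the windows narrowed by 1 Mb at both ends the shares were 1.09% and 0.589% and the difference did not pass the threshold (adjusted p = 0.374 by the same exact test). Regions can lie side by side and are not independent, so these p-values are too small.

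Most summits lay between annotated genes of any kind. Of the 806, 676 (83.9%) fell in no gene of any class, while 51.6% of the bases of the windows do so. Pseudogenes covered 34.6% of the bases but held only 62 summits (7.69%), with 3 more in transcribed pseudogenes. Within 1 kb, 214 regions had a pseudogene, 90 a protein-coding gene and 496 (61.5%) no gene at all. None of the 8 tRNA, 10 snoRNA and 2 rRNA genes in the windows had a region within 1 kb, numbers too small to read against the 5.47% of protein-coding genes that had one.

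H3K27me3 was less frequent at these regions than at nuclear FIE regions as a whole. It overlapped 100 of the 806 (12.4%, 95% Wilson interval 10.3 to 14.9), against 49.7% of all nuclear FIE regions, and it covered 4.70% of the bases of the windows. Of these 100, 93 lay wholly inside an H3K27me3 region. Outside the windows 65.4% of factor-free FIE regions carried the mark (odds ratio 0.0748 with limits of 0.0597 and 0.0938, adjusted p = 1.58e-161 by Fisher's exact test). The share of bases under the mark outside the windows was not computed. This and later contrasts with regions outside the windows therefore include any difference in the coverage of the mark itself. FIE regions lie in clusters and can share an H3K27me3 region, so this and all later p-values for the mark are too small. Of the 806, 481 (59.7%) were more than 10 kb from any H3K27me3 region, and 25 of the 706 unmarked ones lay within 1 kb of one. By chromosome the share was 14.1% on chromosome 1, 18.2% on chromosome 2, 16.2% on chromosome 3, 12.1% on chromosome 4 and 6.22% on chromosome 5. All 5 were below the share outside the windows on the same chromosome, which ran from 62.4% to 67.7%.

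Within the windows, H3K27me3 was found most often at FIE regions with BPC1 alone, at 52% of 50 (interval 38.5 to 65.2, not tested). Regions with both factors carried it more often than those with none. The shares were 24.7% of 344 (interval 20.4 to 29.5) and 12.4% (odds ratio for the factor-free regions 0.432 with limits of 0.313 and 0.596, adjusted p = 7.9e-07 by Fisher's exact test), and the factor-free share was lower on 5 of 5 chromosomes. FIE regions with AZF1 alone had the mark in 15.9% of 453 cases, and the factor-free regions did not differ from them past the threshold (adjusted p = 0.0877 by Fisher's exact test, odds ratio 0.750 with limits of 0.540 and 1.04). Here the factor-free share was lower on 2 of 5 chromosomes. With only H3K27me3 regions above their median −log10 q the order turned, with 4.71% of factor-free regions and 1.99% of AZF1-alone regions marked (odds ratio 2.44 and adjusted p = 0.0132 by Fisher's exact test).

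The factor-free regions split by their surroundings, as did the other FIE regions of the windows. Of the 90 with a summit in or within 1 kb of a protein-coding gene, 44 (48.9%, interval 38.8 to 59.1) overlapped H3K27me3. Such regions were 11.2% of the 806, against 57.8% of all nuclear FIE regions. Of the other 716, 56 (7.82%, interval 6.07 to 10.02) carried the mark. For the 496 with no gene of any class within 1 kb it was 7.26%, and for the 212 with a pseudogene and no protein-coding gene it was 7.55%. Of the 36 marked regions with no gene of any class within 1 kb, 23 lay in 1 broad domain of chromosome 1 described below. Outside the windows the mark was found at 67.3% of factor-free FIE regions near a protein-coding gene and at 56.25% of those far from one. Against these, the pericentromeric shares were lower in both settings (odds ratio 0.465 near genes and 0.0660 away from them; p adjusted over 3 tests = 0.00161 and 1.94e-70 by Fisher's exact test). Away from genes the factor-free regions also carried the mark less often than regions with both factors, at 23.2% of 327, and than those with AZF1 alone, at 15.3% of 444 (p adjusted over 3 tests = 3.61e-11 and 8.35e-05 by Fisher's exact test). Near genes the shares were 52.9% of 17 with both factors and 44.4% of 9 with AZF1 alone, and these comparisons did not pass. With BPC1 alone the shares were 83.3% of 18 near genes and 34.4% of 32 away from them, not tested. This division was chosen after the data were seen.

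**Figure D3:**
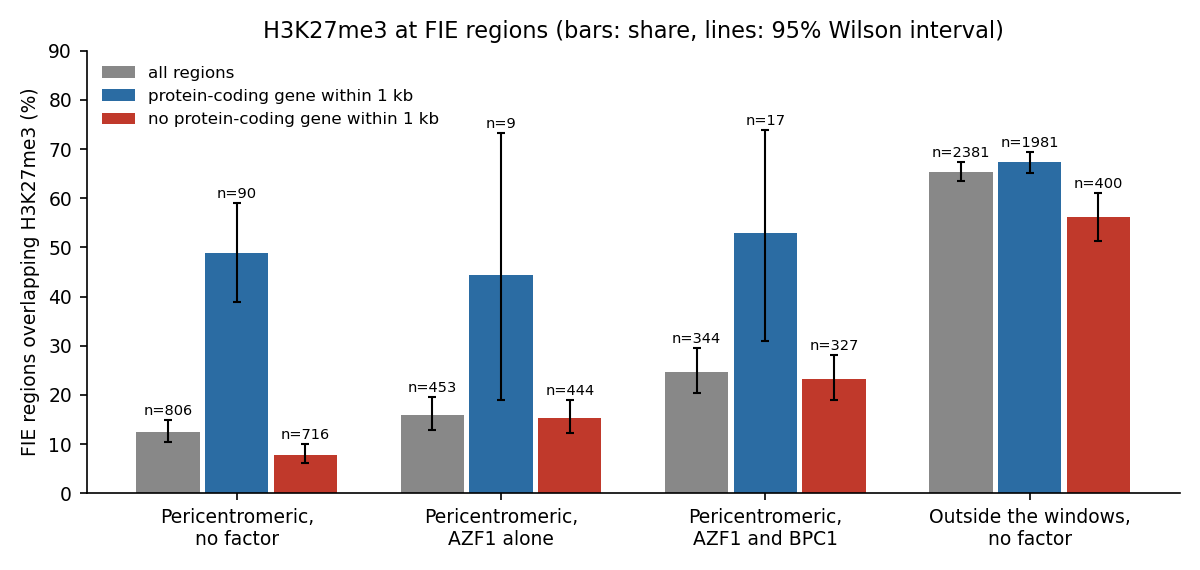
Share of FIE regions overlapping H3K27me3 (vertical axis, %) for 4 classes of FIE regions (horizontal axis), over all regions and split by a protein-coding gene within 1 kb of the summit. Lines are 95% Wilson intervals, which cover counting error only; for the factor-free pericentromeric regions the share is 48.9% near genes and 7.82% away from them.

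The 100 marked regions lay in 60 H3K27me3 regions, of which 46 held a single one. A single broad domain held 23 of them. It spans 27210 bp (chromosome 1, 15111417 to 15138626), is the second widest of the 3940 nuclear H3K27me3 regions, and has no annotated gene of any class within 1 kb. Its H3K27me3 fold of 2.69 was below the nuclear median of 2.98. The 23 factor-free regions in it had FIE folds of 3.94 to 7.94, the highest at 15118709 to 15119148 and the next, 7.81, at 15120804 to 15121178. They lay among FIE regions that had a factor: of 53 FIE regions in the domain, 25 overlapped AZF1 and 10 BPC1. Of the 10 highest marked regions, 4 lay in this domain, 3 at the genes AT1G43140 and SAP, 1 within 1 kb of the protein-coding gene AT3G43420 (fold 6.83), and 2 at the pseudogenes AT5G32197 (7.65) and AT5G31753 (7.20). Without the FIE regions of this domain the marked share of the factor-free class was 9.83% of 783.

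The factor-free regions lay close together in clusters, which were defined after the data were seen. The median distance from one summit to the next was 2140 bp, with quartiles of 888 and 12329 bp, against 17108.5 bp for factor-free FIE regions outside the windows. FIE regions with a factor lay in many of the same clusters, and the spacing of those in the windows was not computed. The clustering is therefore not shown to be particular to the factor-free regions. Joining summits no more than 5000 bp apart gave 182 single regions and 107 clusters of 2 or more. A total of 15 clusters held 10 or more, from 10 to 48 each, and together 337 regions (41.8%). The largest on chromosome 1 (15088352 to 15147338) contains the broad H3K27me3 domain and held 48 factor-free regions among 91 FIE regions, 23 of them marked. The largest on chromosome 5 (11848420 to 11904309) also held 48, among 56 FIE regions, and 0 of the 48 overlapped H3K27me3. Folds in it ran from 3.35 to 7.51. Of the 337 regions in the large clusters, 26 were marked, and only 1 of these clusters had a protein-coding gene within 1 kb.

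**Figure D4:**
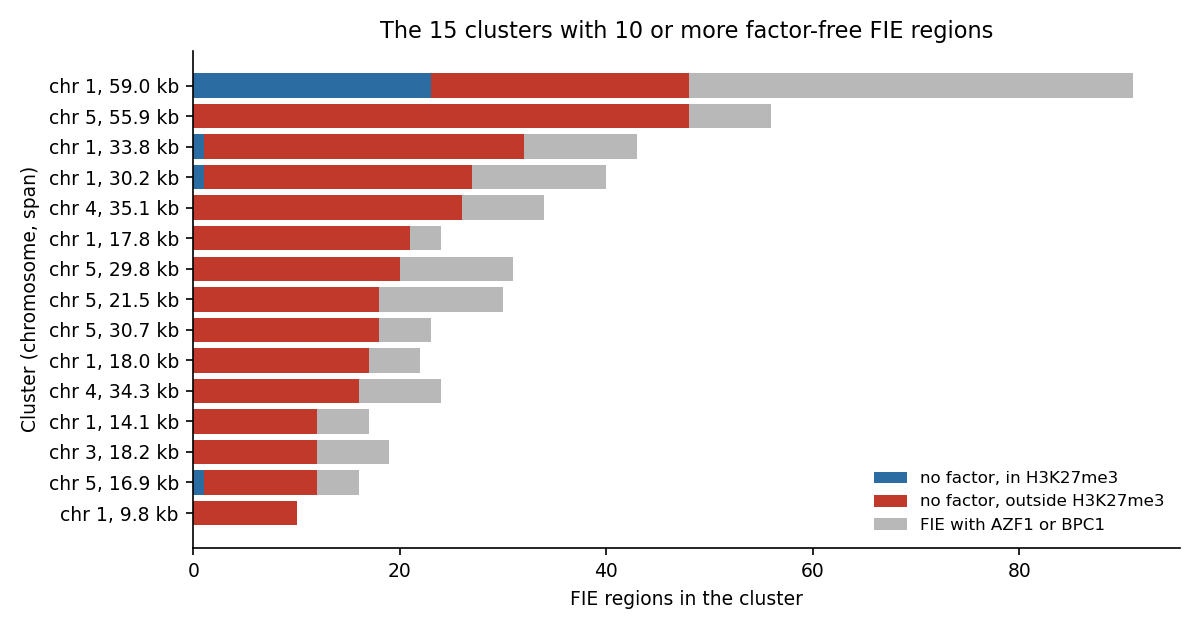
Number of FIE regions (horizontal axis) in each of the 15 clusters with 10 or more factor-free regions, named by chromosome and span in kb (vertical axis). Blue and red are factor-free regions in and outside H3K27me3 and grey bars are FIE regions with a factor; blue is prominent only in the top cluster, with 23 of 48.

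Some of the factor-free FIE regions had a factor region close by without overlap. The nearest AZF1 or BPC1 region was within 500 bp of 284 of the 806 (35.2%), against 9.91% of factor-free FIE regions outside the windows. These shares were not set against the local density of factor regions. The median gap was 974.5 bp to AZF1 and 3164 bp to BPC1, and 78 regions were more than 10 kb from both. Near protein-coding genes, 12.2% had a factor within 500 bp, against 38.1% away from them. Just inside the rule, 13 regions lay within 100 bp of a factor region, the closest at 37 bp, with folds of 2.84 to 6.37. Just outside it, 5 FIE regions overlapped a factor region by under 100 bp, with folds of 3.89 to 5.64. Requiring no factor within 1 kb left 368 regions, of which 12.8% carried H3K27me3 and 13.3% lay in a protein-coding gene.

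Just inside the window edges the H3K27me3 share was above the 12.4% of all 806, while the median fold was the same, at 4.35. The 78 factor-free regions within 0.5 Mb inside an edge overlapped H3K27me3 in 41.0% of cases and had a median fold of 4.35, and the 77 within 0.5 Mb outside did so in 64.9%, with a median fold of 4.71. The excluded stretch of chromosome 2 held 16 factor-free FIE regions, with folds of 2.79 to 5.50 and 0 of 16 in H3K27me3.

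Protein-coding genes with a factor-free region were a small set in which H3K27me3 was frequent. Of 1299 such genes in the windows, 71 (5.47%) had a region inside or within 1 kb. H3K27me3 lay at or within 1 kb of 41 of the 71 (57.7%, Wilson interval 46.2 to 68.5), and of 210 of the other 1228 (17.1%, interval 15.1 to 19.3). This is a description, since neighbouring genes can share a region. At 20 genes there were 2 or 3 factor-free regions, and 13 of these 20 had H3K27me3.

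The gene with the highest such region, AT1G43140, held 3, with folds of 8.29, 5.35 and 4.65, all inside an H3K27me3 region of 6090 bp. SAP (STERILE APETALA), which encodes an F-box protein of flower and organ growth, held 2 with folds of 7.36 and 6.96 (the higher at chromosome 5, 13938674 to 13939195). Both lay in an H3K27me3 domain of 8826 bp, beside 4 further FIE regions at the gene that had a factor. KNAT1 (BREVIPEDICELLUS), a KNOX homeobox gene of the shoot meristem and inflorescence, held 2 with folds of 4.79 and 4.89 (the higher at chromosome 4, 5149476 to 5149900), inside an H3K27me3 region of 7121 bp. KNAT1 and AT1G43140 each also had 1 FIE region with a factor. At these 3 genes every factor-free region lay in a broad H3K27me3 region.

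Other genes carried FIE without the mark. AN3 (ANGUSTIFOLIA 3), a coactivator of leaf cell proliferation that works with growth-regulating factors, held 3 regions with folds of 4.69, 6.85 and 5.10 (the highest at chromosome 5, 10649524 to 10649706). It had no other FIE region and no H3K27me3 region within 1 kb, and the nearest AZF1 region was 8945 bp away. AT3G43960 held 2, with 4.94 and 5.86, and AT1G39070 2, with 4.01 and 4.63. AT1G44830 had 2 inside or within 1 kb of it, with 4.50 and 3.64. HCS2, named for holocarboxylase synthetase, had 2 beside it with 4.02 and 3.02. AT1G40390 had 3 with folds of 3.57 to 3.60, and AT4G05612 held 2 with 3.37 and 3.14. None of these genes had H3K27me3 within 1 kb.

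The remaining genes with several regions had the mark at or near them. AT4G05475 had 3, with folds of 5.28, 6.01 and 5.32, in an H3K27me3 domain of 10759 bp, beside 2 further FIE regions with a factor. Its neighbour AT4G05470 had 2, with 4.01 and 5.28, the latter shared between both genes. AT3G29580 had 2, with 4.49 and 6.70, AT3G29560 2, both at 5.41, and AT3G30730 2, at 5.25 and 5.38, and all 6 lay in the mark. AT5G28300 (GT2L, a GT-2-like protein) had 2 in a narrow H3K27me3 region of 1304 bp, with 4.18 and 3.50. At 4 genes the mark lay near the gene and the FIE regions were outside it. These were AT1G44740, with 5.15 and 6.05, the TCP domain gene AT1G35560 (TCP23), with 4.10 and 4.33, ILL6, a gene of the IAA-amino acid hydrolase family, with 4.02 and 3.61, and FTM1 (FLORAL TRANSITION AT THE MERISTEM), with 5.68 and 3.91.

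**Figure D5:**
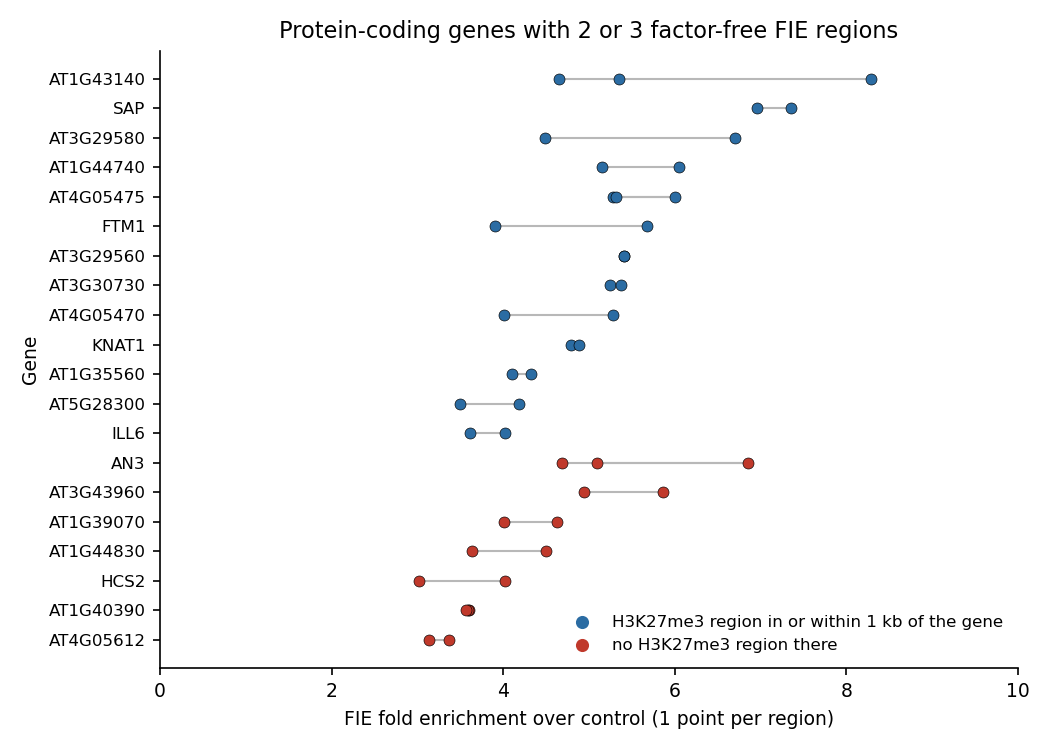
FIE fold enrichment over the control (horizontal axis) of each factor-free region at the 20 protein-coding genes (vertical axis) with 2 or 3 of them. Blue genes have an H3K27me3 region in or within 1 kb and red genes have none; both groups span overlapping folds, with AN3 the highest red gene at 6.85.

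Listed gene families had few genes in the windows. Of 24 lists of families or RNA classes, drawn up by symbol or biotype, 6 had no gene there. A further 3 had a gene with a factor-free region within 1 kb. Such lists miss genes: the homeobox list had no gene in the windows, although KNAT1, described above, is a homeobox gene there. CYP705A13, a cytochrome P450 gene, was 1 of 4 P450 genes in the windows and had a region with a fold of 4.94. Of 33 miRNA genes in the windows, 4 had a region within 1 kb. MIR854a had one of 6.53 at the end of the largest chromosome 5 cluster, MIR396a one of 5.75 (chromosome 2, 4142487 to 4142778), and MIR5643a one of 3.62, all unmarked. MIR397a shared a marked region of 4.62 with ENT6, a nucleoside transporter gene named after its values were seen. Of 289 long non-coding RNA genes, 8 had a region, with the highest shared between AT1G07147 and AT1G43140. The windows held 2 MADS-box, 2 NAC, 2 WRKY and 4 MYB genes by symbol, and 0 of these 10 had one, which is too few to read against the 5.47% of all protein-coding genes there.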

How the data were processed

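ChIP-seq of 21 samples in 7 groups of 3 was deposited by the authors as 4 lists of regions. The submitters' processing notes name MACS2 2.1.1.20160309, Bowtie2, bedtools and the build TAIR10, without roles; the sources used here give neither settings nor how replicates were combined. Each deposited region has the authors' fold enrichment over the control (a ratio) and a −log10 q. The authors' score, which restates that −log10 q, was not used. The lists hold only regions with −log10 q of at least 10. All fold values are the authors', without replicate error. Samples are labelled as biological replicates, but no p-value here measures their spread. Organelle regions were left out.

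Overlap was counted from 1 bp, and coordinates are 1-based. Genes came from a RefSeq table of TAIR10.1 (37899 nuclear genes, 27444 protein-coding), used for names and neighbourhood; it has no strand. A region was put at a gene by its summit, inside it or within 1 kb. Shares have 95% Wilson intervals over regions (counting error only). The 5 Fisher's exact tests were two-sided with Benjamini-Hochberg adjustment (scipy 1.17.1) and Woolf intervals for odds ratios; gene position inside against outside the windows is given as shares only, since position chose the regions; the code was tested on simulated data. Genes named are those at the 15 highest regions, the 10 highest marked regions, genes with 2 or more regions, and up to 5 per family list. The regions, lists and tests were chosen with earlier results of these data known. The planned promoter motif counts were not run, since no sequence was used here.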

Additional observations from a re-analysis of the deposited data

How the results depend on the processing

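No paired analysis was possible because the lists hold no values for single replicates. Of 105 recomputed values, 87 were kept. For the tests this meant the same direction and side of the threshold, and for shares and the median fold a value within the main interval. For the number of regions, kept in 6 of 9 alternatives, it meant staying within a fixed ratio of the main number. The lower H3K27me3 share against factor-free regions outside the windows kept its call in 14 of 14 alternatives, with odds ratios of 0.0417 to 0.465. Against regions with both factors the call was lost only among regions near protein-coding genes (odds ratio 0.850). Across the alternatives this odds ratio ran from 0.278 to 0.850. It was 0.613 above the median FIE −log10 q and 0.615 without chromosome 5. Against AZF1 alone the odds ratio was 0.430 with narrowed windows, 0.567 without chromosome 3 and 0.469 away from protein-coding genes, all past the threshold. It turned to 2.44 with stricter H3K27me3 regions and to 1.196 near protein-coding genes; the cause was not tested. The gene share against regions with AZF1 fell to an odds ratio of 1.86 with narrowed windows, below the threshold. The number of regions was 368 with no factor within 1 kb, 321 above the median FIE −log10 q and 495 without chromosome 1. The marked share was 16.8% above that median, 4.71% with stricter H3K27me3 regions, 7.31% with narrowed windows and 9.83% without the broad domain of chromosome 1. The share in protein-coding genes was 13.3% with no factor within 1 kb, 1.09% with narrowed windows and 11.2% with genes extended by 1 kb. The median fold was 4.995 above the median −log10 q. Splits by nearby gene and the removal of the broad domain were added after the data were seen. Depth behind each region is unknown, so absence from a list says only that no region passed its threshold.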

Other observations

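The following genes were picked after their values were seen. AN3 encodes a partner of growth-regulating factors, and the miR396 family targets the transcripts of some, not all, of these factors. Whether GRF6 is such a target was not examined, and no link between these loci was tested. Factor-free FIE regions lay at AN3 (3 regions, folds 4.69 to 6.85), within 1 kb of MIR396a (5.75) and within 1 kb of GRF6, a growth-regulating factor gene (4.28). The region at GRF6 overlapped H3K27me3 and those at AN3 and MIR396a did not. GRF6 also had 2 FIE regions with a factor. The floral co-repressor gene SEU had an unmarked region of 4.81, while ANX2, a receptor kinase gene of pollen tubes, had a marked one of 4.83 in an H3K27me3 region of 5810 bp. LSH1, a gene of the ALOG family, had a marked one of 4.37 beside a FIE region with a factor.

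A cluster of 10 factor-free regions on chromosome 1 (14671677 to 14681521) contained no AZF1 or BPC1 region and had a median gap of 90453 bp to AZF1. Its folds ran from 3.08 to 4.29 and 0 of 10 overlapped H3K27me3.

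Many regions shared their values. Of the 806, 567 (70.3%) had the same fold and −log10 q, to all deposited digits, as at least 1 other nuclear FIE region, against 74.6% outside the windows, and 22 of them had a fold of 4.94 with a −log10 q of 11.5. Ranks among these regions are therefore tied.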
